A study of Mus musculus with 8 samples.

Results

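The T-cell receptor gamma locus was examined probe by probe in 8 DNA samples from a mouse model of leukaemia and lymphoma. The region was taken as all non-control probes of the array with a mouse build mm9 position in chr13:18000000-20800000, which gave 311 of the 234364 probes with such a position. Of these, 20 probes lay in the locus itself, chr13:19250000-19460000, and the other 291 formed the flank on both sides. The windows were set by position and used no measured value, though they were chosen with earlier results of these arrays known.

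Copy number was measured by comparative genomic hybridisation on 2-colour Agilent 244K arrays, on which tumour DNA and reference DNA compete for the same probes. All mice were Balb/c bone marrow transplants expressing SEC31A-JAK2, a fusion of the tyrosine kinase JAK2 to SEC31A, a coat protein of secretory vesicles. T-lymphoblastic lymphoma (T-LBL) had arisen in 3 primary transplants, from which M7 and M9 were spleen samples and M12 a neck lymph node sample. The 1 primary myeloid hyperplasia, M10, came from bone marrow. The 4 secondary T-LBL were labelled as derived from mouse 12. M12.49, M12.52 and M12.53 came from pancreas and M12.50 from a neck lymph node. M12 and these 4 are called the mouse 12 lineage below, and they share 1 origin, so they are not 5 independent tumours. On every array the sample was labelled with Cy5 and the reference, from a wild-type Balb/c mouse, with Cy3, so no group here lacked the fusion other than the reference itself. The vector and promoter of the fusion, the age of the mice and the share of tumour cells in each sample were not given in the sources used here.

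The gamma chain pairs with the delta chain in the receptor of gamma delta T cells. In germline DNA the locus holds variable (V), joining (J) and constant (C) segments arranged in several clusters, each with its own J and C segments. In developing thymocytes the RAG recombinase joins a V to a J segment, and the DNA between them is usually cut out and lost from the chromosome. Gamma rearrangement starts early in the thymus and is also found in many T cells that go on to use the alpha beta receptor, so the locus serves as a clonal marker of lymphoid tumours. Myeloid cells keep the locus in germline form.

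In the RefSeq annotation of assembly GRCm38.p6 the locus held 7 V, 4 J and 4 C genes between its nearest protein-coding neighbours, Amph and Stard3nl. Amph encodes amphiphysin, a protein of endocytosis, and Stard3nl a late endosomal protein. The order along the chromosome from the Amph side was Trgv7, Trgv4, Trgv6, Trgv5, Trgj1 and Trgc1, then Trgv3, Trgj3 and Trgc3, then Trgc2, Trgj2 and Trgv2, and last Trgv1, Trgj4 and Trgc4. The array files use mm9, so this order is given as background and no probe was placed on a segment. Nor were exon, intron or probe sequence annotations used here. Locus probes lay 8.35 kb apart (median, range 5.58 to 22.6 kb), and flank probes 7.31 kb apart, so changes between probes were not measured.

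The log2 ratio of tumour over reference DNA, centred on each array's autosomal median, is the value given throughout. A ratio of 0 stands for the reference amount, and −1 for 50% of it, the level of a loss of 1 of 2 copies in every cell. A probe is said to lie below the fold threshold where its ratio was −1 or lower. In a DNA mixture, a loss in fewer cells and a smaller loss in every cell cannot be told apart. Each tumour was hybridised once, so the spread over arrays holds tumour and array differences together. The ratio spread between neighbouring probes was 0.444 on M7 and 0.428 on M12.52, and 0.223 to 0.282 on the other 6 arrays. The reference stood well above background at 55.1% of autosomal spots on M7 and at 98.7% or more on each other array. At the locus this held for 8 of 20 reference spots on M7, 19 of 20 on M9 and all 20 on the other arrays. By slide barcode and scan order, M9, M7 and M12.52 were each the later of 2 arrays on their slide, after M12.50, M10 and M12.53 in that order. No locus value was missing, no region spot was saturated, and 15 flank spots of M7 carried outlier flags and were left out.

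Ratios at or below the fold threshold were confined, among the 20 locus probes, to 3 probes in the mouse 12 lineage and 1 other probe in M9. The 3 lineage probes lay at chr13:19281464-19281523 (A_53_P151990), chr13:19297883-19297942 (A_67_P07801212) and chr13:19423745-19423800 (A_67_P07801435). All 3 were at or below −1 in M12 and in each of the 4 secondary tumours, and in none of M7, M9 and M10. The M9 probe lay at chr13:19380287-19380346 (A_67_P07801364). Its sample signal was not well above background, and its bound, a loss of at least 1.40-fold, does not reach the threshold. M7 and M10 had 0 of 20 locus probes at or below −1.

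**Figure D1:**
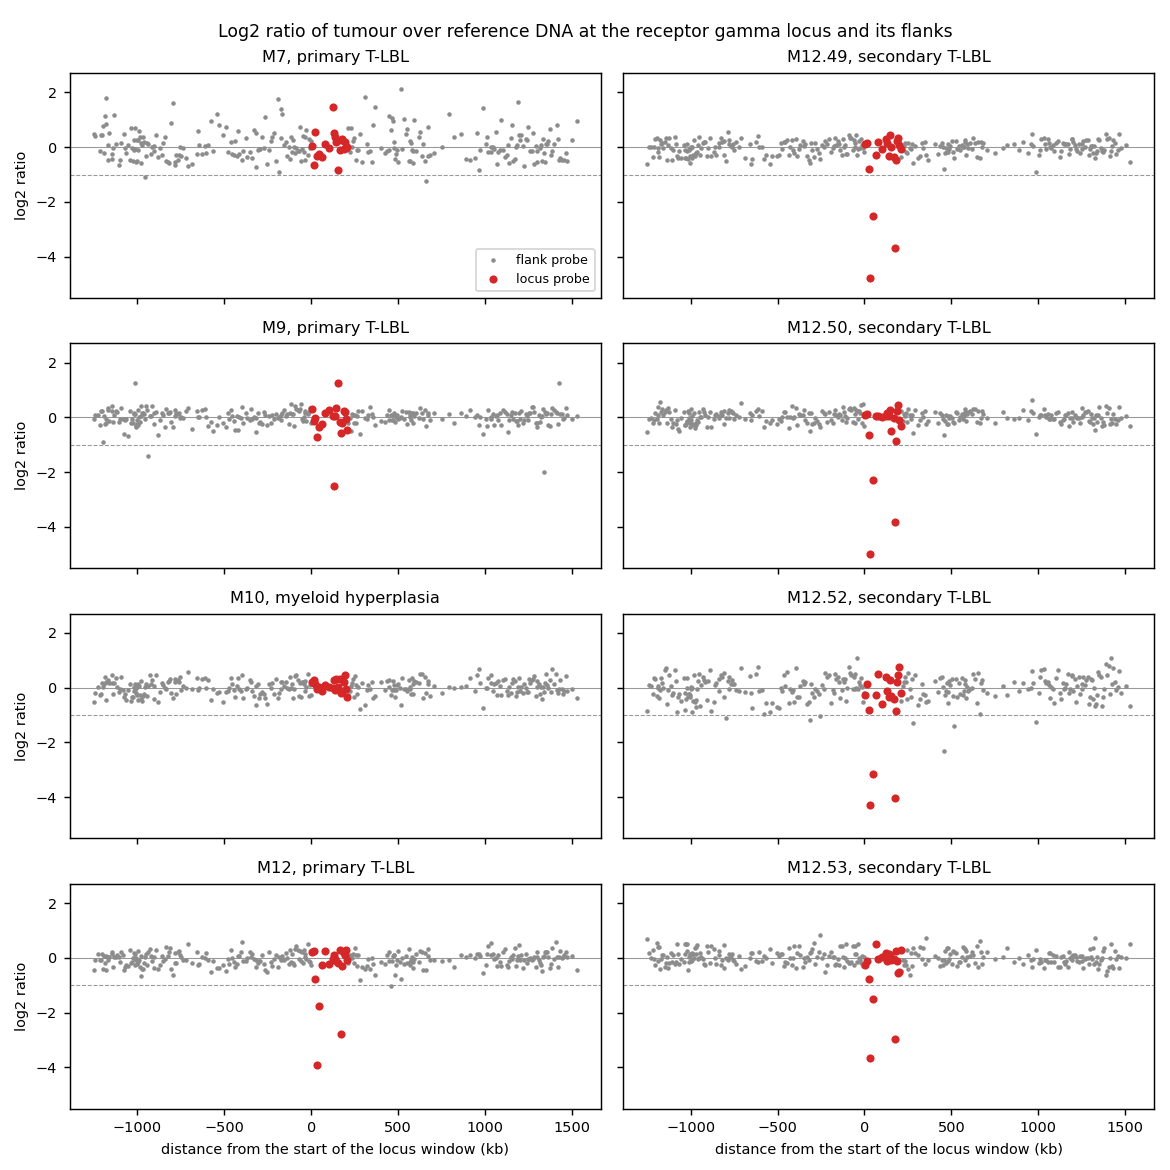
Log2 ratio of tumour over reference DNA (vertical axis) against distance in kb from the start of the locus window (horizontal axis), 1 panel per array. Red points are the 20 locus probes and grey points the 291 flank probes, with the dashed line at −1. The 5 mouse 12 lineage panels (M12 and the right column) each show 3 locus probes below the line, M9 shows 1, and M7 and M10 show none.

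The probe at 19281464 had very low ratios throughout the lineage. Its log2 ratio was −3.92 in M12, −5.00 in M12.50, −4.79 in M12.49, −4.30 in M12.52 and −3.65 in M12.53, against −0.33 in M7, −0.72 in M9 and −0.06 in M10. The lineage did not overlap the other arrays.

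The single dyes showed on which side the ratio moved at 19281464. The processed sample signal (Cy5) was 46.8 in M12, 32.0 in M12.50, 33.5 in M12.49, 47.7 in M12.52 and 43.2 in M12.53, against 541 in M9 and 933 in M10. The reference signal (Cy3) of the same spots was 695, 1031, 923, 922 and 541 in the 5 lineage arrays in the same order, against 895 in M9 and 990 in M10. The sample signal was thus 3.43% to 5.12% of that in M10, while the reference signal was 59.5% to 113% of its median over the arrays. On M7 the sample signal was 175 and the reference signal 224, and the latter was not well above background. The sample signal was not well above background on any of the 5 lineage arrays, so the depth of these ratios was not measured and only a bound can be given. With the dim signal raised to the lowest sample signal counted as well above background on its array, the sample DNA was at least 13.1-fold below the reference in M12, at least 17.8-fold in M12.50 and at least 5.46-fold in M12.49, and in M12.52 and M12.53 by at least 3.97- and at least 6.54-fold. The size of the bound follows the background of each array and gives no order among the tumours. At these bounds the highest lineage value lay at least 1.27 on the log2 scale below M9, the lowest of the other arrays.

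The probe at 19297883, the next one along, also fell in the whole lineage. It read −1.77 in M12, −2.28 in M12.50, −2.51 in M12.49, −3.15 in M12.52 and −1.51 in M12.53, against −0.24 in M7, −0.36 in M9 and 0.01 in M10. Here the sample signal was well above background on 4 of the 5 lineage arrays, so the residual DNA was measured: 321 in M12, 308 in M12.50, 264 in M12.49 and 477 in M12.53, with reference signals of 1070, 1500, 1490 and 1357. These correspond to 3.41-, 4.86-, 5.68- and 2.85-fold less sample than reference DNA. M12.52 was the exception, with a sample signal of 170 that was not well above background and a loss of at least 6.37-fold. The highest lineage value lay 1.15 below the lowest of the other 3 arrays.

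The probe at 19423745 lay towards the far end of the locus and was again low in the lineage alone. It read −2.79 in M12, −3.83 in M12.50, −3.67 in M12.49, −4.01 in M12.52 and −2.98 in M12.53, against 0.26 in M7, −0.55 in M9 and −0.21 in M10. Sample signals in the lineage, in the same order, were 86.5, 69.1, 80.9, 61.4 and 102, against 610 in M9 and 948 in M10. Reference signals were 586, 983, 1022, 974 and 803 in the lineage, 897 in M9 and 1115 in M10. The sample signal was well above background in M12, M12.50 and M12.53, which gave 6.92-, 14.2- and 7.87-fold less DNA than in the reference. In M12.49 and M12.52 it was not, and the loss was at least 6.04- and at least 4.19-fold. On M7 the reference signal of 138 was not well above background, so its ratio there rests on a dim spot. With these arrays at their bounds, the lineage lay at least 1.51 below M9, the lowest of the other arrays. Because so many sample signals were near background, the order of the 3 probes by depth of loss was only partly resolved. The loss at 19297883 was the smallest in M12, M12.50 and M12.53, at 3.41-, 4.86- and 2.85-fold. The bounds at 19281464 on these arrays were at least 13.1-, 17.8- and 6.54-fold. In M12.49 it was 5.68-fold, below the bound at 19423745 but not that of 5.46-fold at 19281464. In M12.52 no order was resolved. Between 19281464 and 19423745 the order was open in M12.49, M12.52 and M12.53.

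**Figure D2:**
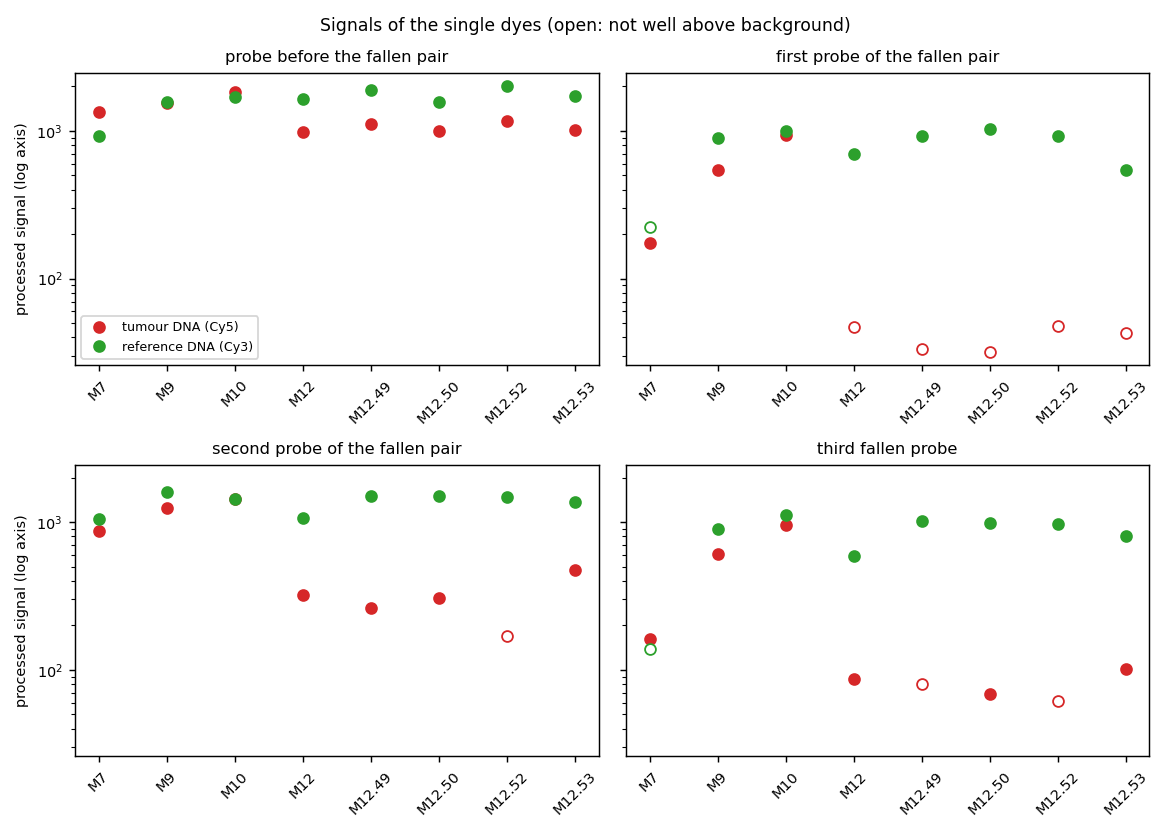
Processed signal of tumour DNA (Cy5, red) and reference DNA (Cy3, green) on a log axis for each of the 8 arrays at 4 neighbouring or fallen locus probes. Open circles are signals not well above background, and at the 3 fallen probes the red points of M12 to M12.53 drop away from the green points while those of M9 and M10 lie closer to them.

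The probe before the fallen pair, at chr13:19274779-19274838 (A_67_P07801168), was lowered by a smaller and nearly constant amount in the lineage. It read −0.78 in M12, −0.66 in M12.50, −0.79 in M12.49, −0.81 in M12.52 and −0.78 in M12.53, against 0.56 in M7, −0.03 in M9 and 0.13 in M10. The secondary mean was −0.76 ± 0.07 (SD, n = 4), and the lineage lay 0.63 below the lowest other array. Both dyes were well above background on all 8 arrays at this probe. The sample signal was 975 to 1159 in the lineage, against 1347 in M7, 1535 in M9 and 1826 in M10, and the reference signal 1569 to 1992. It did not reach the fold threshold in any array.

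The probe after the fallen pair, at chr13:19314431-19314490 (A_67_P07801257), did not separate the lineage. It read −0.27 in M12, 0.05 in M12.50, −0.29 in M12.49, −0.26 in M12.52 and 0.52 in M12.53, against −0.36 in M7, −0.25 in M9 and −0.11 in M10. The probe before the third fallen probe, at chr13:19417240-19417284 (A_67_P07801429), read 0.31 in M12, −0.00 in M12.50, −0.36 in M12.49, −0.41 in M12.52 and −0.05 in M12.53, against −0.10 in M7, −0.17 in M9 and 0.32 in M10. These 2 neighbours thus overlapped between the lineage and the other tumours. The probe after the third fallen probe, at chr13:19429787-19429846 (A_67_P02640750), was lower in some lineage tumours, with −0.30 in M12, −0.85 in M12.50, −0.48 in M12.49, −0.85 in M12.52 and 0.25 in M12.53. M9 and M10 read −0.19 and −0.16 there, within the lineage range, and M7 read 0.31, above M12.53.

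These neighbours bound the low stretches. The fallen pair spanned 16.5 kb from the first base of its first probe to the last base of its second, and the probes on either side that were not at or below −1 left 39.6 kb between them (chr13:19274839-19314430). The third fallen probe stood alone in a 12.502 kb interval between its neighbours (chr13:19417285-19429786). Between the pair and the third probe lay 125.8 kb with 9 probes. Their mean was −0.02 in M12, 0.02 in M12.50, 0.01 in M12.49, −0.09 in M12.52 and 0.08 in M12.53 (SE over probes 0.06 to 0.13), and the lowest single value among them in the lineage was −0.59. On these arrays, then, low probes stood on both sides of a stretch whose mean was near the reference level in each lineage tumour.

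**Figure D3:**
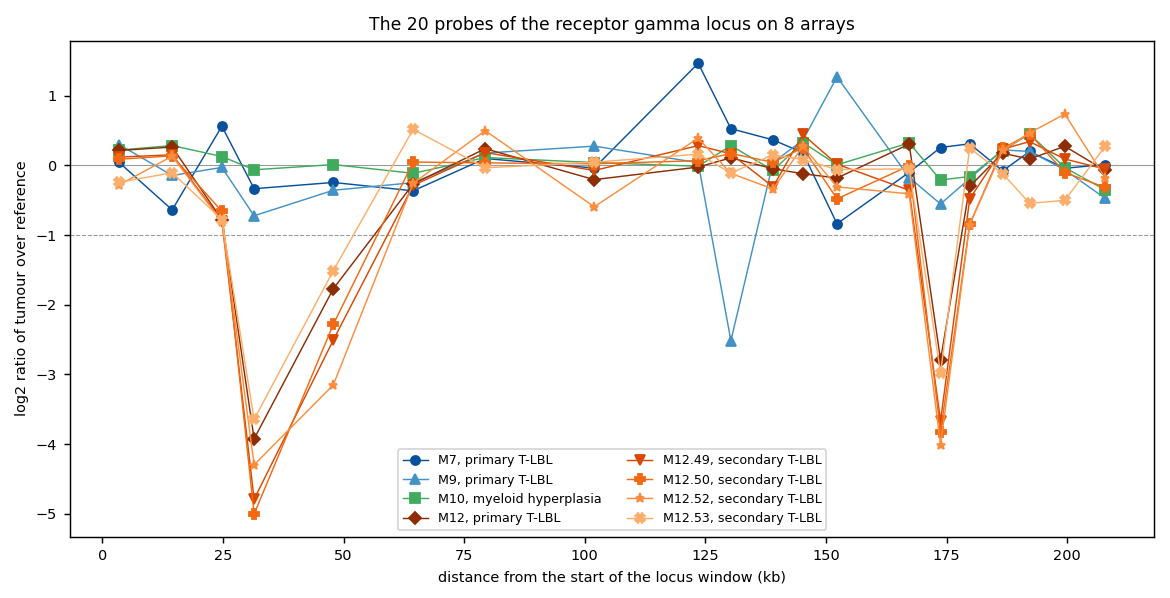
Log2 ratio of the 20 locus probes (vertical axis) against distance in kb from the start of the locus window (horizontal axis), with 1 line per array. Orange to brown lines are the mouse 12 lineage, blue lines M7 and M9 and the green line M10. The lineage lines drop together at 3 probes and lie near 0 at the 9 probes between them, and M9 drops at a probe where no other array does.

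Outside the 3 fallen probes the locus of the lineage lay near the reference level on average, though the probe at 19274779 was lowered in the whole lineage. The other 17 locus probes averaged −0.02 in M12, −0.05 in M12.50, −0.02 in M12.49, −0.08 in M12.52 and −0.06 in M12.53. They averaged 0.10 in M7, −0.05 in M9 and 0.10 in M10. The lowest of the 17 in the lineage lay between −0.78 and −0.85 on each array.

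The spleen lymphoma M9 was low at a different probe, and M7 at none. M9 alone fell at 19380287, one of the 9 probes between the lineage's low ones, with −2.52 against 0.53 in M7, 0.29 in M10, 0.11 in M12, 0.17 in M12.50, 0.17 in M12.49, −0.11 in M12.52 and −0.11 in M12.53. Its sample signal there was 81.4, not well above background, against a reference signal of 467. The bound was a loss of at least 1.40-fold, which does not reach the fold threshold. The probes on either side, at chr13:19373510-19373569 and chr13:19389023-19389082, both read 0.04 in M9, so this is a single probe on a single array. At the former M7 read 1.47, M10 −0.01 and the lineage −0.02 to 0.39, and at the latter M7 read 0.37, M10 −0.07 and the lineage −0.34 to 0.15. At 19402286 the M7 value of −0.84 and the M9 value of 1.27 each came from spots with neither dye well above background, while the other 6 arrays read −0.48 to 0.02. At the 3 probes fallen in the lineage, M9 read −0.72, −0.36 and −0.55, and 1.88%, 9.36% and 3.60% of autosomal probes on that array were lower. M9 was the later array on the slide that first carried M12.50, whose part in these M9 values was not tested. In M7 20.4%, 27.5% and 69.7% of autosomal probes were lower than these 3, and in M10 41.7%, 51.7% and 24.7%.

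The share of all autosomal probes at or below −1 gives the background for these counts. It was 0.0863% in M12, 0.11% in M12.50, 0.257% in M12.49, 2.2% in M12.52 and 0.122% in M12.53, against 15.0% of locus probes (3 of 20) in each. M9 had 5.0% of locus probes (1 of 20) against 0.876% of all autosomal probes, through a dim spot whose bound does not reach −1. For M7 the background was 1.8% and for M10 0.161%, with no locus probe fallen in either. All 5 lineage arrays were at or below −1 at 95 autosomal probes, or 0.0431% of those measured, and 3 of these 95 were the locus probes. The lineage lay below all 3 other arrays at 0.828% of autosomal probes and at 4 of 20 locus probes, and by 0.5 or more at 0.0495% and at the same 4, namely the 3 fallen probes and that at 19274779. With normexp background correction in place of the processed signals, no locus probe was at or below −1 in M9, M12, M12.49 and M12.52, and 2 were in each of M12.50 and M12.53.

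The flank did not share the loss. At or below −1 were 2 of 276 flank probes in M7, 2 of 291 in M9, 0 in M10, 1 in M12, 7 in M12.52 and 0 in M12.49, M12.50 and M12.53. The 7 in M12.52 were 2.41% of its flank, beside a background of 2.2% on that noisy array. No flank probe was at or below −1 on all 5 lineage arrays, and 3 of 276 lay below all 3 other arrays, none of them by 0.5. The flank probe at chr13:19707903-19707962 (A_53_P114740) was at or below −1 on 2 arrays. It read −1.01 in M12 and −2.30 in M12.52, −0.79 in M12.49, −0.65 in M12.50 and −0.06 in M12.53, against 0.63 in M7, 0.08 in M9 and −0.26 in M10. The lineage and the other arrays overlapped at this probe through M12.53.

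Averaged over the 20 probes, the locus differed from its flank by −0.39 in M12, −0.61 in M12.50, −0.54 in M12.49, −0.62 in M12.52 and −0.48 in M12.53, with standard errors over probes of 0.24 to 0.32. The same difference was −0.02 ± 0.11 (SE) in M7, −0.14 ± 0.16 in M9 and 0.06 ± 0.05 in M10. The wide errors in the lineage come from 3 low probes beside 17 that averaged near 0. The locus median lay between −0.27 and 0.03 on all 8 arrays. By medians the locus differed from its flank by −0.256 in M12.52, and by −0.0805 to 0.0138 in the other lineage arrays. The lowered mean is therefore mainly a statement about 3 probes, not about the locus as a whole.

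The first group comparison asked which locus probes were lost in the secondary tumours relative to normal DNA. A limma fit of all autosomal probes over 3 groups and 8 arrays, with Benjamini-Hochberg adjustment over 221378 probes, called 60 probes lower in secondary T-LBL (0.0271%) and none higher. Of these, 2 of 20 were locus probes and 0 of 291 flank probes. The probe at 19281464 had a secondary mean of −4.44 (SE 0.49, adjusted p = 0.0364, limma), lower in 4 of 4 tumours. The probe at 19423745 had −3.62 (SE 0.40, adjusted p = 0.0340, limma), also in 4 of 4. The probe at 19297883, at −2.36 (SE 0.29), missed the threshold with an adjusted p of 0.0522, and that at 19274779, at −0.76 (SE 0.18), had an adjusted p of 0.777, both lower in 4 of 4. At an unadjusted p under 0.05 the fit held 10392 autosomal probes, 4.69% of those tested, among them 6 of 20 locus probes (5 lower) and 11 of 291 flank probes. Both called means include ratios from dim spots, entered as read and not at their bounds. With dim arrays at their bounds, the mean secondary loss at 19281464 was at least 7.09-fold, against 21.6-fold as read. At 19423745 it was at least 7.29-fold, against 12.3-fold as read. Both calls depended on the arrays used. They were lost without M9, without any 1 of the 4 secondary tumours, and without M7 and M12.52 together, where 0 locus probes were called. With mouse of origin or scan as a random block, or with normexp, 0 were called as well. The fit used 1 estimate of spread per probe for all groups, so differences among the 3 primary tumours also enter these p-values. Without M12 the SE at 19281464 was 0.21, against 0.49 with all arrays. The 4 secondary tumours share mouse 12 as their origin, so they are not independent samples.

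In primary T-LBL against the reference the limma fit called 0 autosomal probes lower (0.0%) and so no member, with 2 of 20 locus and 10 of 291 flank probes at an unadjusted p under 0.05, beside 9351 autosomal probes (4.22%). The 3 primary tumours did not act as a group at the fallen probes. Their means were −1.66 ± 1.97 at 19281464, −0.79 ± 0.85 at 19297883 and −1.03 ± 1.58 at 19423745 (SD, n = 3), each set by M12 alone.

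Secondary and primary tumours were then compared, as the series design asks. The limma difference called 0 autosomal probes lower (0.0%), with 4 of 20 locus and 3 of 291 flank probes at an unadjusted p under 0.05, beside 2191 autosomal probes (0.99%). The differences at the fallen probes were −2.78 (SE 0.76), −1.57 (SE 0.44) and −2.59 (SE 0.61) in order of position, each with an adjusted p of 0.99997 in limma. With slide as a fixed block the limma difference rested on M12.50 against M9 alone. With scan as a fixed block it rested on M12.49 and M12.52 against M9 alone. M9 was the only primary array in both, so only the sizes are given, which equal the within-batch differences below. The mean over the 20 locus probes was −0.17 ± 0.26 (SD, n = 3) in the primary and −0.57 ± 0.08 (SD, n = 4) in the secondary tumours. This difference of −0.40 had a two-sided exact permutation p of 0.0286, the smallest that the 35 splits allow, and all 4 secondary tumours lay below all 3 primary ones. It rests on M7 and M9: M12 itself averaged −0.44, close to M12.53 at −0.46. The 4 secondary tumours derive from mouse 12, whose own tumour M12 is in the primary group. The arrays were thus not independent, and the exact permutation p-values do not measure a general difference between secondary and primary lymphoma. With the median in place of the mean the difference was −0.06 (exact permutation p = 0.686), and without the 3 arrays that came later on their slide it was −0.10 (exact permutation p = 0.5, smallest possible 0.250). Within slide 2, M12.50 minus M9 was −0.47, and within scan 3, the mean of M12.49 and M12.52 minus M9 was −0.48. At the 3 fallen probes these within-batch differences were −4.28, −1.92 and −3.27 on slide 2 and −3.82, −2.47 and −3.29 in scan 3. The other slides and scans did not hold both a primary and a secondary lymphoma.

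Set against M12, the primary sample from mouse 12, the secondary tumours repeated the same 3 probes and added no other at the fold threshold. The secondary mean minus M12 was −0.51 at 19281464, where 3 of 4 secondary tumours were below M12. It was −0.59 at 19297883 (3 of 4 below) and −0.83 at 19423745 (4 of 4 below), and 0.02 at 19274779 (2 of 4 below). M12 is a single array, so these differences have no test. At 19281464 no sample signal on either side was well above background, so no difference was measured there. At 19423745 M12.49 and M12.52 were dim, and with them at their bounds 2 of 4 lay below M12.

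The other receptor loci were counted under the same rule to place the gamma pattern. In the receptor alpha window, chr14:54300000-54800000, 89.1% of measured probes in M12 and 90.8% to 95.4% in the secondary tumours were at or below −1. The longest unbroken run of such probes there was 20 to 31 in the lineage. In the receptor beta window, chr6:41000000-41500000, the shares were 11.1% in M12 and 31.7% to 44.4% in the secondary tumours, with longest runs of 1 to 5. M7 had 12 of 63 beta probes at or below −1, M9 had 1, and M12 had 7. At the gamma locus the longest run was 2 on each lineage array. M10 had 0 fallen probes in all 3 windows. M7 had 27.0% and M9 4.62% of alpha probes at or below −1, beside 0 and 1 probe at the gamma locus. On all 5 lineage arrays together, 56 of 65 alpha, 2 of 63 beta and 3 of 20 gamma probes were at or below −1. Shares at loci of different probe number and spacing describe these arrays and were not tested against each other.

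**Figure D4:**
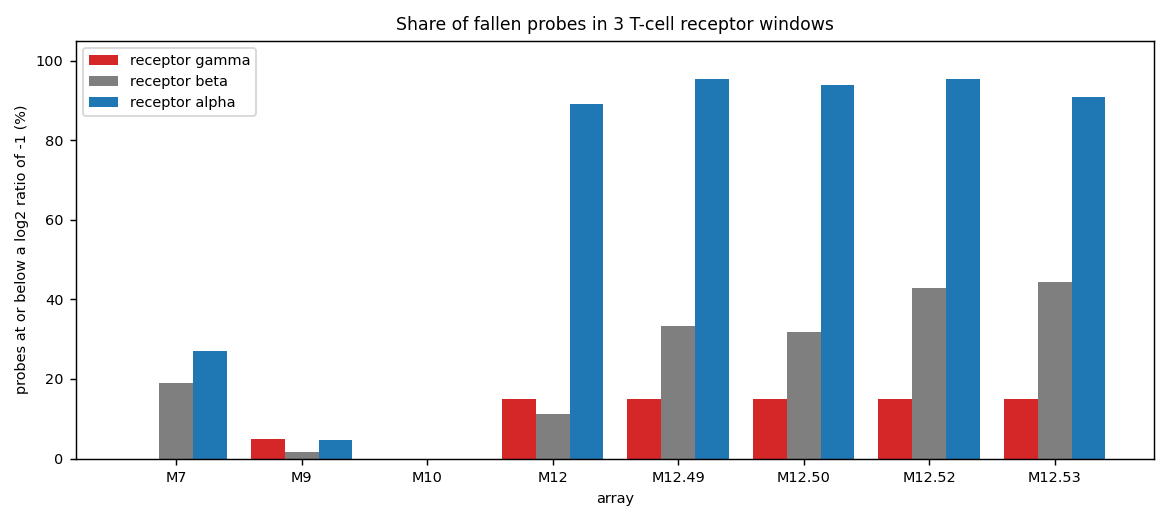
Percent of probes at or below a log2 ratio of −1 (bars from 0, vertical axis) in the receptor gamma locus, receptor beta window and receptor alpha window on each of the 8 arrays. The gamma bars stand at 15.0% in M12 and all 4 secondary tumours, 5.0% in M9 and 0 in M7 and M10, below the alpha bars wherever the lineage is shown.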

How the data were processed

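Each deposited array file gives, per spot, the processed intensities of Cy5 and Cy3. Per the file headers, Feature Extraction 10.5.1.1 subtracted background and normalised the dyes. Per the submitters' processing notes the version was 9.1.1. The log10 ratios deposited in the LogRatio column equal those of the series table (largest difference 0) and were not used further. Probe positions are mm9 in 7 files and mm8 in that of M12, which took mm9 positions by probe name.

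From these, the log2 ratio of processed Cy5 over Cy3 was computed, control and outlier spots were left out, spots of a probe were averaged, and arrays were centred on the autosomal median. Members, windows, the fold threshold of −1 and the naming rule were chosen with earlier results of these data known. Named were locus probes at or below −1 on any lymphoma array with their neighbours, and flank probes at or below −1 on at least 2 lymphoma arrays or called by limma. The probe at 19402286 and the dye signals at 19274779 and 19380287 were added after their values were seen. Groups were compared with limma 3.58.1 (R 4.3.3; lmFit and eBayes, adjusted p threshold 0.05) and, for the locus mean, an exact permutation test that enumerated all splits of the 7 lymphoma arrays. The limma step was run on simulated data with independent noise on each array and losses implanted in the secondary arrays. That simulation held no shared origin and no dim spots, so it does not check the calls under those conditions. Replicate error within a tumour was not measured. The number of arrays limits the precision. Alternatives were other background, centring, filters, blocks, folds and left-out arrays. The background alternative used median spot signals, since the spot tables at hand gave no mean signals. Scripts ran in Python 3.11.15 with pandas 2.3.3, numpy 2.4.6, matplotlib 3.10.9 and, for centring on the mode, scipy 1.17.1.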

Additional observations from a re-analysis of the deposited data

How the results depend on the processing

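Of the 20 locus probes, limma called 2 lower in secondary T-LBL. It called 0 with normexp background (offset 50), with scan or mouse of origin as a random block, without the noisy arrays M7 and M12.52 (an alternative chosen after seeing the data), and 0 to 3 with 1 array left out. Array weights gave 10, but called 103732 autosomal probes lower and 103766 higher, so that fit is no support. For secondary minus primary T-LBL, 0 were called without a fixed block. With slide or scan as a fixed block M9 was the only primary array behind the difference, so no calls are given. The secondary mean at 19281464 passed the threshold in 9 of 18 alternatives, that at 19297883 in 6 and that at 19423745 in 9, and stayed below 0 in each. Each count includes the array weights fit, which is no support. Each also includes slide as a random block, which had a within-slide correlation of −0.72. That fit called 275 autosomal probes lower and 22 higher. With normexp these means were −0.67, −0.93 and −0.69, against −4.44, −2.36 and −3.62.

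The locus mean difference was −0.198 with normexp (exact permutation p = 0.0571), −0.0583 with medians (p = 0.686, exact), −0.536 to −0.282 with 1 array left out (where p cannot go below 0.0667), −0.100 without arrays on re-used slides and −0.256 without the noisy arrays, both chosen after seeing the data. Locus probes at or below −0.5 numbered 2 in M7, 3 in M9, 0 in M10, 4 in M12 and M12.49, 5 in M12.50 and 6 each in M12.52 and M12.53. The shares of autosomal probes were 10.54%, 4.59%, 5.53%, 3.24%, 4.2%, 2.79%, 14.9% and 3.02% on these arrays in the same order. With normexp, 0 were at or below −1 in M9, M12, M12.49 and M12.52, and 2 each in M12.50 and M12.53; the cause was not tested. Locus minus flank with normexp was −0.101 in M12, −0.0111 in M12.49 and −0.205 in M12.52. With medians it was 0.0079 in M10, −0.0298 in M12, 0.0138 in M12.50, −0.0169 in M12.49, −0.256 in M12.52 and −0.0805 in M12.53. With reference spots well above background it was 0.121 in M7. No paired analysis was possible, because every secondary tumour was labelled as derived from mouse 12 and none from the mice of M7 and M9. Signal over background limits the depth of loss that can be read at 19281464 on all lineage arrays.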
